A study of Homo sapiens with 4 samples.

Results

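Of the 26490 genes in the deposited PAR-CLIP table, 49 were taken as ribosome biogenesis factors from their symbols alone. The rule took symbols that begin with NOP, UTP, NOL or RRP followed by a digit, the RNA polymerase I subunits POLR1A to POLR1E, WDR12, WDR43, WDR75, BOP1, PES1, PPAN, NPM1 and FBL. The rule itself uses no measured value, but it was chosen with earlier results of these data known. Since a symbol is not a function, 43 of the 49 were listed with a role in ribosome biogenesis and 6 were grouped without a listed role (NOL7, NOL3, NOL4, NOL4L, the antisense RNA NOP14-AS1 and RRP7BP, a pseudogene of RRP7A). A gene without a listed role may still have one. The data came from HEK293 cells, a human embryonic kidney line, carrying a stably integrated and tetracycline-inducible transgene for FLAG/HA-tagged DHX36 beside the endogenous gene. The FH-DHX36 line expressed isoform 2, and the FH-DHX36-E335A line expressed isoform 1 with a substitution in the helicase core that removes catalysis. Both lines received 500 ng/ml tetracycline for 15 h, were fed 4-thiouridine and were irradiated at 365 nm for 5 min, with 2 replicate samples each. Isoform and mutation differed together between the lines, so that their effects cannot be told apart.

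Ribosomes are built mainly in the nucleolus. RNA polymerase I transcribes the precursor of the ribosomal RNAs, small nucleolar ribonucleoproteins (snoRNPs) modify and help to fold it, and the small subunit processome and the large subunit assembly factors cleave it and load ribosomal proteins. DHX36 is a helicase that recognizes and unwinds G-quadruplexes, 4-stranded structures that can form where several short runs of G lie close together in RNA or DNA. In PAR-CLIP, 4-thiouridine built into new RNA is crosslinked to the bound protein, and T-to-C conversions in the reads mark the contact. A cluster is a group of overlapping reads with such conversions, and crosslinked reads are the reads counted for it. NXPM is the authors' occupancy score, in which the crosslinked reads of a gene are scaled by the depth of the experiment and divided by how abundant its mRNA was.

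The table held 1 value per gene and cell line, in which the replicates are not separated. Therefore no replicate spread and no test could be computed. The intervals on read shares and log2 ratios are 95% Wilson or binomial intervals for the error of counting reads. Those on shares of bound factors are 95% Wilson intervals over genes, as if the listed genes were independent draws. The latter do not measure how well a share would repeat. The study's methods do not say how PCR duplicates were treated, so reads may not be separate molecules. Without replicate spread, the intervals on reads are too narrow as a measure of repeatability. The table summed to 8752127 crosslinked reads for FH-DHX36-E335A and 2160413 for FH-DHX36, and the deeper PAR-CLIP could list more genes and more clusters. A gene enters with a called cluster, and the lowest number of crosslinked reads on a listed gene was 5 for FH-DHX36-E335A and 6 for FH-DHX36.

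DHX36 contacted most mRNAs for ribosome biogenesis factors. With FH-DHX36-E335A, at least 1 cluster was called on 41 of the 49, or 83.7% (interval 71.0% to 91.5%), where 34.5% of all genes in the table and 47.7% of its protein-coding genes did. In the FH-DHX36 PAR-CLIP, 30 of the 49 did, or 61.2% (interval 47.2% to 73.6%), where the values were 22.4% of all genes and 31.0% of the protein-coding ones. The median abundance recovered from NXPM was 13.6 on the 41 bound factors and 5.89 on all genes with an FH-DHX36-E335A cluster, and the part of abundance in the shares was not tested. Abundance is on the authors' RNA-seq scale and is recovered only for genes with a cluster.

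Another 114 genes with a role in ribosome biogenesis, which the symbol rule does not match, were counted in the same way. Of these, 104 (91.2%) had an FH-DHX36-E335A cluster and 69 (60.5%) an FH-DHX36 cluster. Among the 83 cytosolic ribosomal protein genes, which encode the protein part of the ribosome itself, the counts were 67 (80.7%) and 60, at a median abundance of 4291 on those with an FH-DHX36-E335A cluster.

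The 41 bound factors carried 295 FH-DHX36-E335A clusters, with a median of 7 per gene against 5 over all bound genes and up to 25 on RRP1B. FH-DHX36 gave 75 clusters on 30 factors, with a median of 2, as over all bound genes, and up to 7 on FBL. Crosslinked reads added up to 42150 for FH-DHX36-E335A, or 0.482% of that PAR-CLIP, and to 19171 for FH-DHX36, or 0.887%. The median count on a bound factor was 652 for FH-DHX36-E335A, where all bound genes had 326, and 126 for FH-DHX36, where all bound genes had 121. Both sums rested on few genes. FBL and NOP56 held 30.9% of the factors' FH-DHX36-E335A reads, and POLR1C and FBL held 67.7% of their FH-DHX36 reads.

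**Figure D1:**
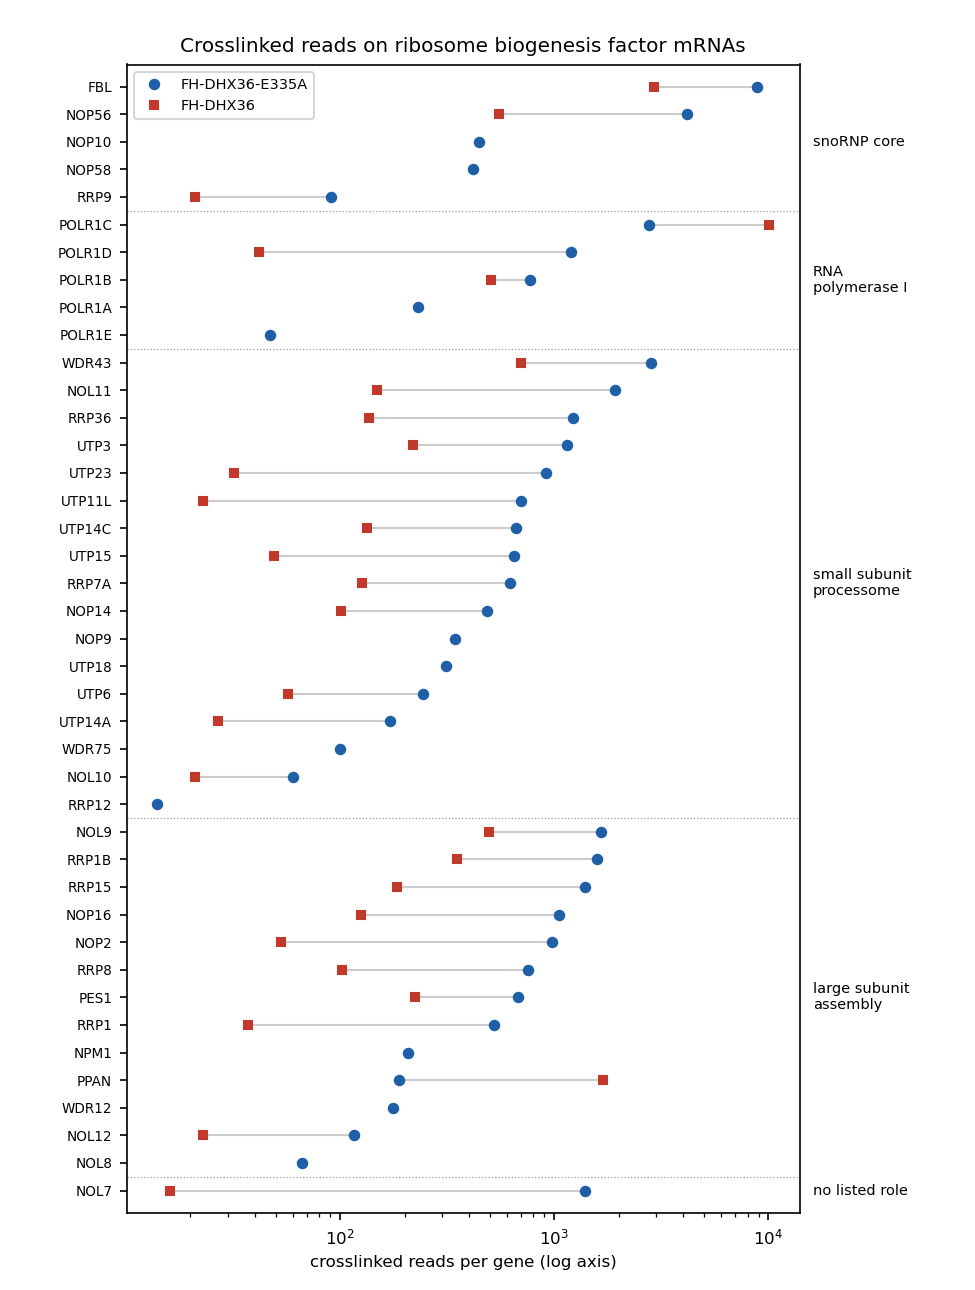
Crosslinked reads per gene on a log axis for the 41 ribosome biogenesis factors with a cluster, grouped by role, with FH-DHX36-E335A as blue circles and FH-DHX36 as red squares joined by a gray line. A gene with no square had no FH-DHX36 cluster, counts are not scaled to depth, and POLR1C (2757 and 10065 reads) and PPAN (189 and 1684) are the genes with more reads in the shallower FH-DHX36 PAR-CLIP.

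The snoRNP proteins were all contacted by FH-DHX36-E335A, and FBL and NOP56 carried the most reads among them. FBL encodes fibrillarin, the enzyme that methylates ribose in ribosomal RNA as part of box C/D snoRNPs. It had 8835 FH-DHX36-E335A reads in 9 clusters and 2912 FH-DHX36 reads in 7 clusters. Of these reads, 2309 and 214 lay in the CDS, and the other 6526 and 2698 lay under another annotation, meaning neither in an intron nor in the CDS or a UTR, a remainder obtained by subtraction whose name the table does not give. NXPM of FBL was only 0.984 and 1.31, below the medians over all bound genes of 5.66 and 7.84, because the score divides by an abundance of 1026.

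The FBL coding sequence held 10 matches to a G-run pattern, here at least 4 runs of at least 2 G with 1 to 7 nt between runs, on the sense strand and without overlap. All 10 lay in exons 2 and 3 of 9, in the stretch that encodes the glycine- and arginine-rich start of the protein. The 4 below, with runs of G in capitals, are shown because FBL had the most FH-DHX36-E335A reads of the 49 factors. Most of those reads lay under another annotation and not in the CDS. Coordinates are GRCh37, and strand is that of the gene.
FBL, CDS, exon 2, chr19:40331397-40331413, minus strand: GGGGGtGGctttGGcGG
FBL, CDS, exon 2, chr19:40331289-40331299, minus strand: GGaGGtGGaGG
FBL, CDS, exon 2, chr19:40331277-40331287, minus strand: GGcGGcGGcGG
FBL, CDS, exon 2, chr19:40331265-40331275, minus strand: GGaGGaGGaGG

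The table gives clusters per gene and region but not their positions, so that no match could be placed under a cluster. NOP56, a scaffold protein of the same box C/D snoRNPs, was contacted in its CDS, with 3696 of its 4184 FH-DHX36-E335A reads in 12 CDS clusters. With FH-DHX36, 305 of 551 reads lay in the CDS and 246 under another annotation. Its CDS held 5 matches to the G-run pattern. NOP58, the partner of NOP56, had 416 reads and NOP10, a core protein of the pseudouridylating H/ACA snoRNPs, had 445, both for FH-DHX36-E335A alone. RRP9, which belongs to the snoRNP of early precursor cleavage, had only 91 and 21 reads, although its CDS held 14 matches. In this group the number of G-run matches and the number of crosslinked reads did not rank the genes alike.

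Among subunits of RNA polymerase I, the reads of POLR1C differed most in number between the PAR-CLIPs. POLR1C, a subunit shared with RNA polymerase III, had 2757 FH-DHX36-E335A reads and 10065 FH-DHX36 reads, the seventh-highest FH-DHX36 count of all genes. In each PAR-CLIP 1 cluster under another annotation held most of them, 2272 reads (82.4%) and 9965 reads (99.0%). POLR1C reads in exons, meaning its UTRs and CDS, numbered 485 and 100. POLR1C has several overlapping genes on the opposite strand, and an annotated snoRNA gene named SCARNA15 lies within it on the same strand. The table lists 0 intronic reads for POLR1C, and which feature the large cluster was assigned to is not given.

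POLR1B, the second-largest subunit, was contacted almost only in its CDS, with 722 of 770 FH-DHX36-E335A reads and all 509 FH-DHX36 reads there, the latter in 1 cluster. POLR1D, the other subunit shared with RNA polymerase III, had 1193 and 42 reads. Of the former, 199 lay in the 5′ UTR and 935 in 13 clusters under another annotation. POLR1A, the catalytic subunit, had 230 FH-DHX36-E335A reads and POLR1E had 47, with no FH-DHX36 cluster on either. Thus 5 of 5 subunits were contacted in the FH-DHX36-E335A PAR-CLIP and 3 of 5 in the FH-DHX36 PAR-CLIP.

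Among the small subunit processome factors, 17 of 19 had an FH-DHX36-E335A cluster and 13 of 19 an FH-DHX36 cluster. WDR43, a WD-repeat protein of the subcomplex that links transcription of the precursor to its processing, stood apart by its introns. Of its 2840 FH-DHX36-E335A reads, 2188 were intronic, and of its 703 FH-DHX36 reads, 513 were. WDR43 alone held 88.2% and 91.4% of all intronic reads of the 49 factors. WDR43 hosts the snoRNAs SNORD53 and SNORD92 in its introns. The other 5 factors with an annotated snoRNA inside the gene, NOL11, NOP56, NOP58, POLR1C and PPAN, had 0 intronic reads in both PAR-CLIPs. Whether the WDR43 reads lie on the snoRNAs cannot be read from counts per gene.

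NOL11, of the same subcomplex, was a 3′ UTR target, with 1578 of 1924 FH-DHX36-E335A reads and 130 of 149 FH-DHX36 reads in a single 3′ UTR cluster in each PAR-CLIP. UTP15, of that subcomplex as well, had 574 of 652 and 30 of 49 reads in its 3′ UTR. WDR75, a further member, had 100 reads for FH-DHX36-E335A alone. UTP3, a processome factor, was contacted in the CDS instead, with 1027 of 1149 reads and 219 of 219. The UTP3 coding sequence lies in 1 exon on chromosome 4 and held 7 matches to the G-run pattern, of which 3 are shown, because they fall within a short stretch of a coding sequence with 5 FH-DHX36-E335A and 4 FH-DHX36 clusters, with runs of G in capitals.
UTP3, CDS, exon 1, chr4:71554622-71554632, plus strand: GGaGGaGGaGG
UTP3, CDS, exon 1, chr4:71554677-71554695, plus strand: GGaGGGaatgcGGGGGaGG
UTP3, CDS, exon 1, chr4:71554697-71554707, plus strand: GGaGGaGGaGG

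UTP14C is an autosomal retrocopy of the X-linked gene UTP14A, both encoding the same kind of processome factor. UTP14C had 644 of 662 FH-DHX36-E335A reads and 133 of 133 FH-DHX36 reads in its 3′ UTR. UTP14A had 171 and 27 reads, of which 117 and 27 were in the CDS and none in the 3′ UTR. Reads from stretches that both copies share could have been assigned to either. UTP14C also overlaps ALG11 on the same strand, which was listed with 97 and 0 reads.

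RRP7A, a small subunit factor, had 565 of 622 and 127 of 127 reads in its 3′ UTR of 4566 nt, which held 29 matches to the G-run pattern, the most of any factor. RRP36 had 1226 and 136 reads, of which 916 and 136 lay under another annotation. UTP6 had 68 of 243 FH-DHX36-E335A reads and all 57 FH-DHX36 reads in the 5′ UTR. UTP18, with 313 FH-DHX36-E335A reads, was contacted in the CDS only. RRP12, an export factor of the small subunit precursor, had 14 FH-DHX36-E335A reads and no FH-DHX36 cluster, although its CDS held 22 matches, the most of any factor. NOL6 and UTP20, large scaffold proteins of the early small subunit, had no cluster in either PAR-CLIP.

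Of the large subunit factors, 13 of 14 had an FH-DHX36-E335A cluster and 10 of 14 an FH-DHX36 cluster. NOL9, a kinase that phosphorylates the 5′ end of ribosomal RNA intermediates, had 1324 of 1661 and 495 of 495 reads in its 3′ UTR, which spans 4507 nt and held 10 matches. RRP1B, a nucleolar protein of early large subunit assembly, carried 25 FH-DHX36-E335A clusters, 16 of them in the 3′ UTR with 1127 of 1576 reads. In the FH-DHX36 PAR-CLIP, 268 of 350 reads on RRP1B were instead in the 5′ UTR. A match in each of these UTRs is shown, with runs of G in capitals, since they hold most FH-DHX36 reads of the gene.
NOL9, 3′ UTR, exon 12, chr1:6584562-6584579, minus strand: GGGGGtgccGGcGGctGG
RRP1B, 5′ UTR, exon 1, chr21:45079453-45079467, plus strand: GGcccGGGcGGacGG

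PES1, BOP1 and WDR12 form a complex needed for maturation of the large subunit, and they were listed unequally. PES1 had 676 and 224 reads, divided between CDS (332 and 102) and 3′ UTR (312 and 122). WDR12 had 176 reads for FH-DHX36-E335A alone, and BOP1 had none. NOP2, a methyltransferase acting on ribosomal RNA, had 978 and 53 reads, RRP8, another such methyltransferase, had 752 and 102, and NOP16 had 1050 and 125. NPM1, nucleophosmin, an abundant nucleolar histone and assembly chaperone, had 208 FH-DHX36-E335A reads at an abundance of 617. Its NXPM of 0.0385 was the lowest of the factors. NOL12, related to an exonuclease of rRNA 5′ ends, had 76 of 116 and 23 of 23 reads in an intron.

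PPAN, a large subunit factor of the Brix domain family, had 189 FH-DHX36-E335A reads in 2 clusters and 1684 FH-DHX36 reads in 4 clusters, all of the latter in the CDS. PPAN lies directly upstream of P2RY11, and the read-through gene PPAN-P2RY11, whose transcripts use PPAN exons, was listed on a line of its own, with 3915 and 1514 reads. P2RY11 had 2372 and 954 reads. Because these genes share exons, reads could have been split between them, and the values of PPAN are uncertain. The CDS of PPAN held 15 matches. The 2 shown lie in its last exon, the first in the part that the annotated read-through transcripts also use and the second in the part that only PPAN uses, with runs of G in capitals.
PPAN, CDS, exon 12, chr19:10221665-10221682, plus strand: GGGcGGaagcGGaagcGG
PPAN, CDS, exon 12, chr19:10221803-10221826, plus strand: GGccGGGGccGGGGccgcccaGGG

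Of the 6 genes grouped without a listed role, NOL7 was the only one with a cluster. NOL7, a nucleolar protein, had 1399 FH-DHX36-E335A reads in 8 clusters, of which 382 were in the CDS and 913 under another annotation. It had only 16 FH-DHX36 reads, in 1 CDS cluster. NOL3, NOL4, NOL4L, NOP14-AS1 and RRP7BP had no cluster in either PAR-CLIP. NOP14, which lies opposite NOP14-AS1, had 485 and 101 reads.

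The factors were contacted more in the CDS and less in the 3′ UTR than the transcriptome as a whole when FH-DHX36-E335A was captured. Of their reads, 30.4% lay in the CDS against 16.9% over all genes, and 24.9% lay in the 3′ UTR against 53.3%. A further 36.8% lay under another annotation against 21.4%, 5.89% in introns against 4.48% and 1.96% in the 5′ UTR against 3.86%. The counting intervals were narrow, such as 24.5% to 25.3% for the 3′ UTR, but the shares rested on few genes. Leaving out FBL and POLR1C, a choice made after their values were seen, gave 33.5% in the CDS, 33.7% in the 3′ UTR and 22.0% under another annotation.

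In the FH-DHX36 PAR-CLIP, 69.4% of the factors' reads lay under another annotation against 16.7% over all genes. FBL and POLR1C held 95.1% of these reads, and without them the share fell to 10.5%. The CDS share was 18.4% with them and 51.9% without them, against 28.4% over all genes, and thus stood on the other side of the value for all genes. However, PPAN alone, whose values are uncertain, held 1684 of the 3214 CDS reads left without FBL and POLR1C. The 51.9% thus rested largely on 1 gene. The 3′ UTR share was 7.26% with them and 22.5% without them, against 38.4%. The other ribosome biogenesis genes had 51.0% of FH-DHX36 reads in coding sequence and 23.8% in 3′ UTRs, and 29.0% and 43.2% of FH-DHX36-E335A reads.

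**Figure D2:**
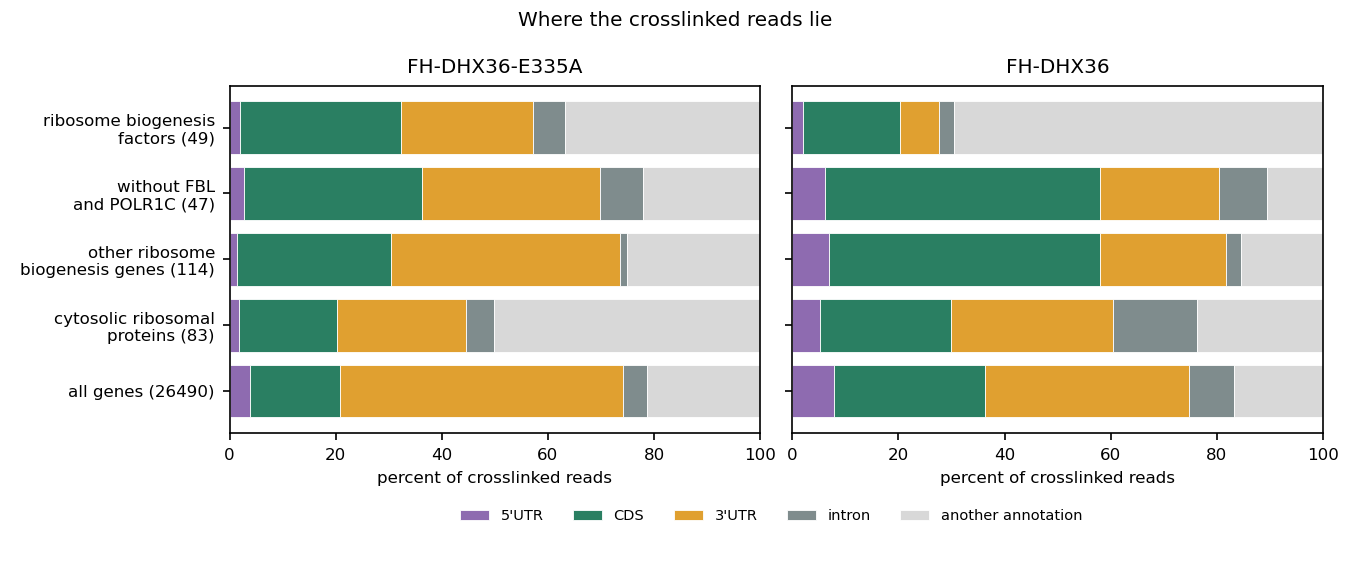
Percent of crosslinked reads by annotation in the FH-DHX36-E335A (left) and FH-DHX36 (right) PAR-CLIPs, for the 49 ribosome biogenesis factors, the same without FBL and POLR1C, 114 other ribosome biogenesis genes, 83 cytosolic ribosomal protein genes and all genes. Another annotation takes 69.4% of the factors' FH-DHX36 reads and 10.5% without FBL and POLR1C, and the 3′ UTR share of the factors is below that of all genes in both panels.

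Region lengths were compared with the clusters. The bound factors had a median 3′ UTR of 847 nt, shorter than the 1534 nt over all genes bound by FH-DHX36-E335A, and a median CDS of 1557 nt against 1392 nt. Counted by clusters, 47.8% of the factors' exonic FH-DHX36-E335A clusters lay in the CDS, which made up 47.8% of their transcript length, a ratio of 1.00. Over all bound genes this ratio was 0.83. For the 3′ UTR, which made up 49.7% of transcript length on the factors and 52.1% on all bound genes, the ratios were 0.94 and 1.14. For the 5′ UTR they were 2.23 and 1.04, on 13 clusters of the factors, whereas the factors' share of reads in the 5′ UTR was below that of all genes. For FH-DHX36 the CDS ratios were 1.15 and 0.89, the 3′ UTR ratios 0.78 and 0.99 and the 5′ UTR ratios 2.70 and 2.14, the last on 4 clusters of the factors. No interval was computed for these ratios.

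Gene by gene, the region with the most reads often recurred between the PAR-CLIPs. It was the same for 22 of the 30 factors with a cluster in both, and for 59.7% of all 5669 such genes. More than 50% of FH-DHX36-E335A reads lay in the CDS for 11 factors, in the 3′ UTR for 14, under another annotation for 8, in introns for 2 and in the 5′ UTR for 2. Over all genes bound by FH-DHX36-E335A the shares were 17.1%, 49.4%, 12.6%, 5.90% and 3.42%. For FH-DHX36 the counts were 10, 11, 4, 2 and 3, where the shares over all bound genes were 27.5%, 35.9%, 10.4%, 13.1% and 8.85%. The 2 mainly intronic factors were WDR43 and NOL12 in both. At least 1 intronic cluster was listed for 7 factors (23.9% of all bound genes) when FH-DHX36-E335A was captured, and for 3 (24.3%) in the FH-DHX36 PAR-CLIP, and at least 1 cluster under another annotation for 28 (45.4%) and 8 (20.9%).

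**Figure D3:**
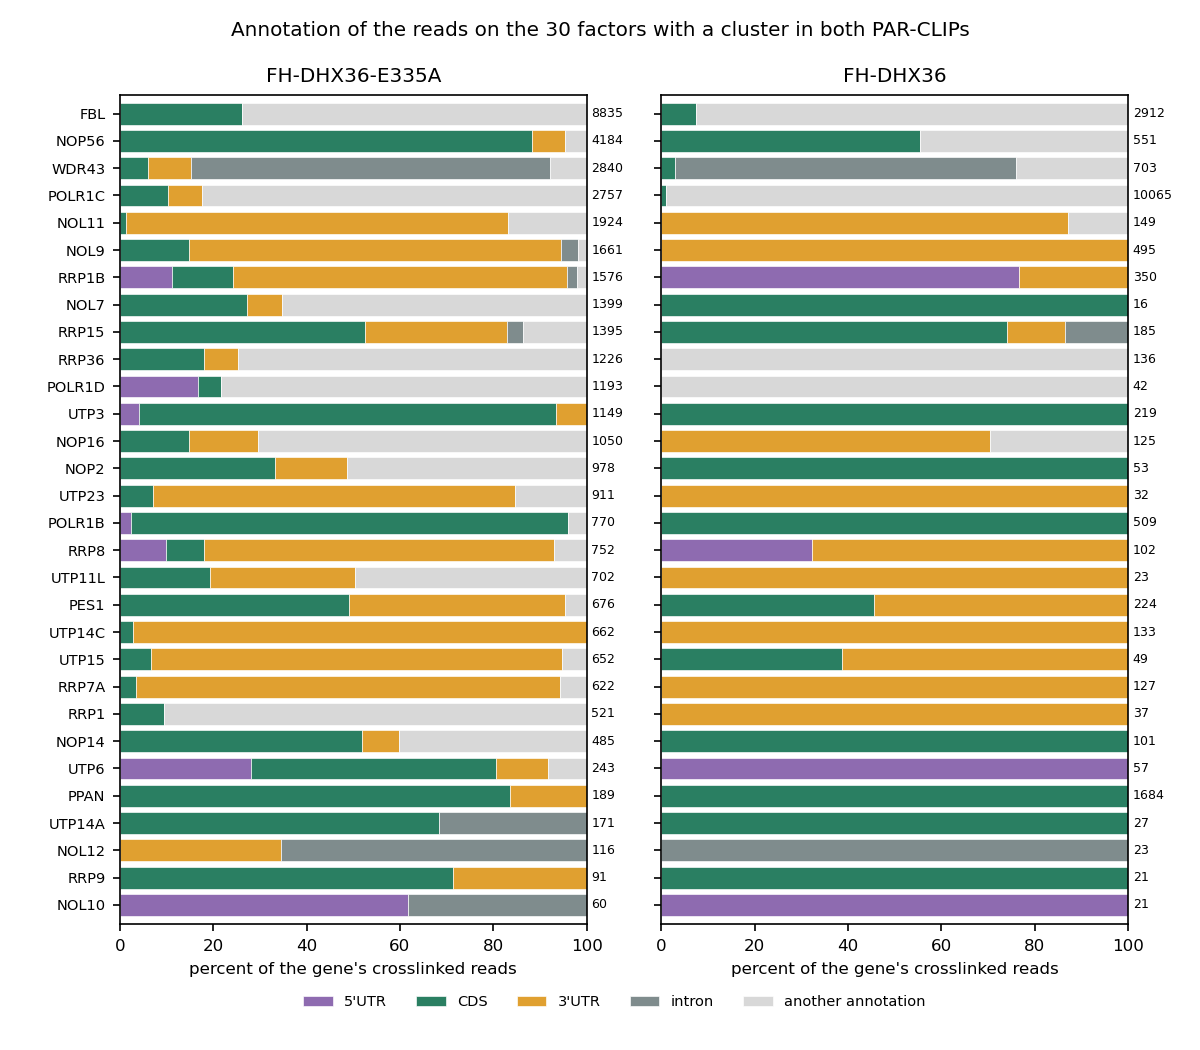
Percent of each gene's crosslinked reads by annotation for the 30 factors with a cluster in both PAR-CLIPs, with the number of crosslinked reads at the right of each bar. NOL9, UTP14C and RRP7A are mostly 3′ UTR and UTP3, POLR1B and PPAN mostly CDS on both sides, whereas RRP1B and NOP16, for example, change their main region.

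Clusters in both PAR-CLIPs were listed for 30 of the 49 factors, where 21.4% of all genes and 29.6% of protein-coding genes had them, and for FH-DHX36-E335A alone in 11, namely NPM1, NOP10, NOP58, UTP18, RRP12, WDR75, WDR12, POLR1A, POLR1E, NOL8 and NOP9. Thus 11 of 41 factors bound by FH-DHX36-E335A were without an FH-DHX36 cluster, where 37.9% of all such genes were. These 11 had 14 to 445 FH-DHX36-E335A reads with a median of 208, and the 30 bound in both had a median of 840. No factor was bound in the FH-DHX36 PAR-CLIP alone, where 4.40% of genes with an FH-DHX36 cluster were.

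Scaled to the reads of each PAR-CLIP, 10 of the 30 factors with both clusters were more than 2-fold higher for FH-DHX36-E335A and 3 more than 2-fold higher for FH-DHX36. Over all 5669 genes the shares were 28.6% and 24.8%. With exonic reads only, the counts were 9 and 4, with no shares over all genes computed. Among the 27 factors with exonic reads in both, 7 changed sign. Of these 7, 3 had been past 2-fold, namely POLR1C, RRP1, whose log2 ratio of FH-DHX36-E335A over FH-DHX36 went from 1.80 to -1.60, and NOP16, from 1.05 to -0.19. With all reads, the median log2 ratio was 0.34 on the factors and 0.12 on all genes. NOL7 had the highest log2 ratio, 4.43 (counting interval 3.73 to 5.24), followed by UTP11L at 2.91, UTP23 at 2.81 and POLR1D at 2.81. UTP11L and UTP23 are small subunit factors with 702 and 911 FH-DHX36-E335A reads, but only 23 and 32 FH-DHX36 reads. With exonic reads the log2 ratio was 2.92 for NOL7, 1.94 for UTP11L and 2.59 for UTP23. POLR1D had no exonic FH-DHX36 reads.

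The lowest log2 ratios were those of PPAN, -5.17 (counting interval -5.40 to -4.96), POLR1C, -3.89 (-3.95 to -3.83), and POLR1B, -1.42 (-1.58 to -1.26). The value of PPAN was -5.16 with exonic reads only, and -1.66 after all reads of PPAN and PPAN-P2RY11 were summed. Of the PPAN-P2RY11 reads, 78 of 3915 for FH-DHX36-E335A and 149 of 1514 for FH-DHX36 lay in the CDS. In its 3′ UTR there were 0. A sum of exonic reads was not computed. The value of POLR1C was 0.27 with exonic reads only. POLR1B did not rest on another annotation and was -1.46 with exonic reads. The next lowest was NOL10, a small subunit factor, at -0.50, with 60 and 21 reads and a counting interval of -1.24 to 0.29 that includes 0, and at -1.19 with exonic reads. RRP1B had a log2 ratio of 0.15, and 0.10 with exonic reads. WDR43 was at 0.00 with all reads, which are mostly intronic, and at 2.35 with exonic reads. FBL was at -0.42 with all reads and at 1.43 with exonic reads.

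**Figure D4:**
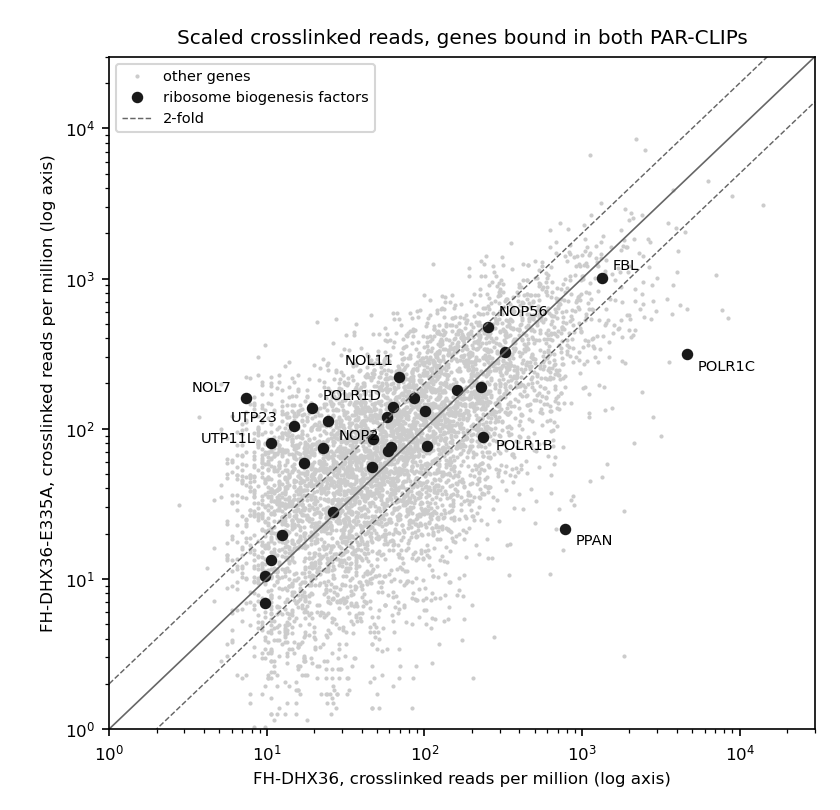
Crosslinked reads of FH-DHX36-E335A against FH-DHX36, each scaled to the depth of its PAR-CLIP, on log axes for genes with clusters in each PAR-CLIP, with the 30 ribosome biogenesis factors in black, other genes in gray, equality as a solid line and a 2-fold difference as dashed lines. POLR1C, PPAN and POLR1B lie beyond the 2-fold line on the FH-DHX36 side, NOL7 is the farthest on the FH-DHX36-E335A side, and 17 factors lie between the lines.

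By NXPM, which divides by abundance, the factors stood below the transcriptome. Their median NXPM was 2.45 for FH-DHX36-E335A, where all bound genes had 5.66, and 3.35 for FH-DHX36, where all bound genes had 7.84. Divided also by the length of the canonical transcript, the medians were 1.28 and 1.19 NXPM per kb for the factors and 1.57 and 2.02 for all bound genes. Of the factors, 16 of 41 and 9 of 30 were above the median NXPM per kb of all bound genes. The bound ones of the 114 other ribosome biogenesis genes had median NXPM values of 4.56 for FH-DHX36-E335A and 5.14 for FH-DHX36. Per kb their medians were 1.59 and 1.49, so that only the latter was below that of all bound genes. The ribosomal protein genes, whose mRNAs are very abundant, had median NXPM values of 0.0159 and 0.0144.

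On the scale of NXPM per kb, UTP14C, UTP23 and RRP15 were highest for FH-DHX36-E335A, at 18.3, 11.8 and 9.60. The abundance of UTP14C was 0.747, below the minimum of 1 used for ranking NXPM, so that its score rests on a small divisor. RRP15, a large subunit factor, had an NXPM of 74.5 and 40.0, and NOL9 had 51.2 and 61.8. For FH-DHX36, POLR1C was highest at 85.3 NXPM per kb, followed by UTP14C at 14.9 and PPAN at 10.3. NXPM above 100 was reached by UTP14C for FH-DHX36-E335A (101), where 5.18% of bound genes were above 100, and by POLR1C for FH-DHX36 (109), where 6.78% were. By role, the medians of NXPM per kb for FH-DHX36-E335A were 0.693 for snoRNP proteins and 1.32 for RNA polymerase I. They were 1.65 for the small subunit and 0.981 for the large subunit. For FH-DHX36 the medians were 0.683, 7.25, 1.40 and 1.26 in this order, with 3 genes each for snoRNP proteins and RNA polymerase I. The 1.32 is the value of POLR1D, whose canonical transcript has 693 nt and whose longest has 4592 nt.

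**Figure D5:**
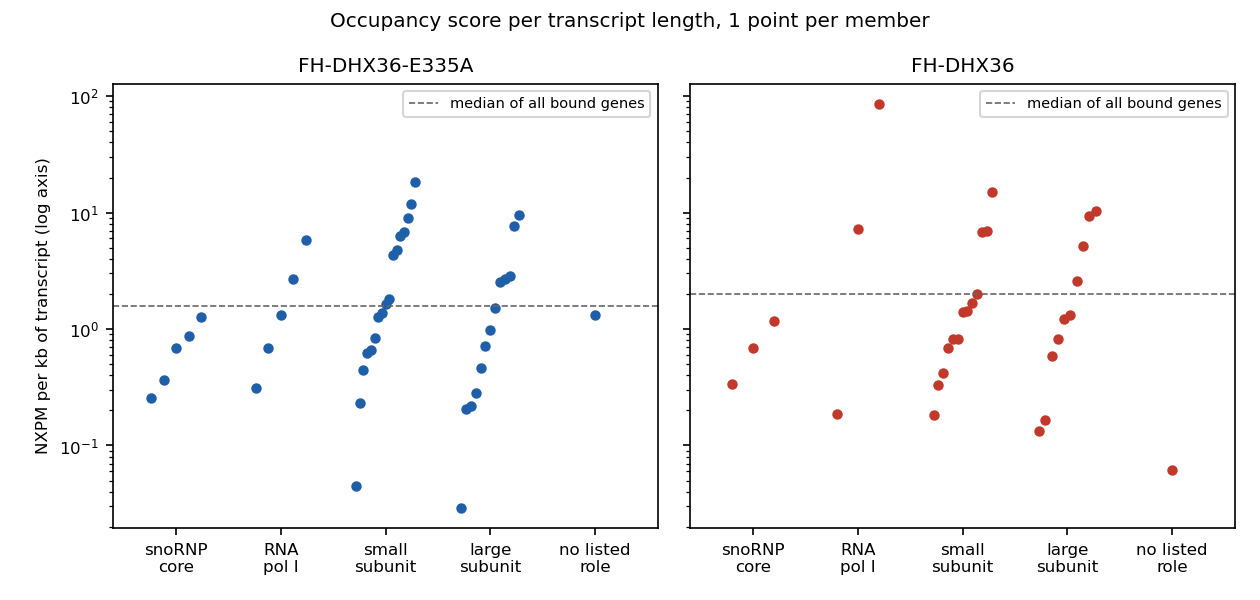
NXPM per kb of canonical transcript on a log axis for each bound factor, grouped by role, in the FH-DHX36-E335A (left) and FH-DHX36 (right) PAR-CLIPs, with the median of all bound genes (1.57 and 2.02) as a dashed line. All 5 snoRNP proteins lie under the line on the left, values within the small subunit group run from 0.0453 to 18.3, and the highest point on the right is POLR1C at 85.3.

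Reads did not follow abundance closely. Spearman's rho between crosslinked reads and recovered abundance was 0.26 over the 41 factors bound by FH-DHX36-E335A and 0.07 over the 30 bound by FH-DHX36. Between the PAR-CLIPs, rho of scaled reads was 0.60 over the 30 factors in both. These describe genes that share the same libraries and are not replicates.

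The share of 3′ UTRs that held the G-run pattern was about the same for the factors as elsewhere, but other measures differed. The pattern was found in the 3′ UTR of 28 of the 46 factors with a canonical protein-coding transcript, or 60.9%, and in 65.1% of all 3′ UTRs of the table's genes. Per kb of 3′ UTR, there were 2.41 matches on the factors and 1.84 over all. With runs of at least 3 G, 6.52% of the factors' 3′ UTRs had a match against 14.3% over all. In the CDS, 42 of 46 (91.3%) had a match against 84.8%, and in the 5′ UTR 16 of 46 (34.8%) against 53.9%. The 5′ UTRs were also short, with a median of 79.5 nt against 133 nt over all. None of the 5 snoRNP protein mRNAs had a match in its 3′ UTR or 5′ UTR, and their 3′ UTRs had a median of 99 nt. A match is a stretch of sequence and not a measured structure or contact.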

How the data were processed

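The FH-DHX36 and FH-DHX36-E335A lines were profiled by PAR-CLIP in duplicate. According to the study's methods, the authors aligned reads to hg19, used PARalyzer within PARpipe for cluster calling and annotated clusters with GENCODE v19. The submitters' processing notes name bcl2fastq 2.17.1. Per gene and region, the authors deposited raw crosslinked read counts and numbers of clusters. NXPM, a score, was deposited as reads scaled to the PAR-CLIP and divided by abundance. Values are the authors' own, 1 per gene and cell line, so no test was run.

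Abundance was recovered as scaled reads over NXPM minus 0.001. In the 5649 genes compared, both PAR-CLIPs gave the same abundance within 0.1%. On simulated data made with the same formula this returned 100% of abundances within 0.01%, which checks the computation only. For genes with many reads, simulated counts returned the log2 ratio of 97.0% of 200 changed genes within 0.5 of its known value. There the FH-DHX36 counts were drawn from the FH-DHX36-E335A counts with counting noise only, without variation between libraries. How closely the ratio is returned for genes with few reads was not tested. Another annotation is all reads minus 5′ UTR, CDS, 3′ UTR and intron. Lengths and sequences came from canonical transcripts of GENCODE 44 on GRCh37, the same build with a later annotation, to which 23929 genes and all 49 members matched through symbols and RefSeq synonyms. Python 3.11.15, numpy 2.4.6, pandas 2.3.3, scipy 1.17.1 and matplotlib 3.10.9 were used.

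Members and lists were chosen with earlier results of these data known. Full values were given by rule for the 2 members with the most FH-DHX36-E335A reads per role, the 3 highest NXPM per PAR-CLIP at an abundance of at least 1, the 4 highest and 4 lowest log2 ratios, the 3 highest shares per region among members with at least 100 reads, and snoRNA hosts. Other members were named for role and presence, and their values, as well as PPAN-P2RY11, P2RY11 and ALG11, were added after they were seen.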

Additional observations from a re-analysis of the deposited data

How the results depend on the processing

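No paired analysis was possible because the table carries no replicate columns, and for the same reason no replicate could be left out. Of the alternatives for the main values, 26 stayed near the reported value and 36 moved, 16 of the intron and 5′ UTR shares moved, and of the single-gene log2 ratios 17 stayed, 8 moved and 3 past 2-fold reversed. The causes were not tested beyond what each alternative leaves out. The factors' share of reads was 0.372% and 0.328% with exonic reads (FH-DHX36-E335A first), 0.381% without FBL, 0.421% without POLR1C for FH-DHX36, and 0.466% with listed roles only for FH-DHX36-E335A. Counted by clusters, CDS, 3′ UTR and other annotation took 36.9%, 35.9% and 19.7% for FH-DHX36-E335A and 40.0%, 30.7% and 17.3% for FH-DHX36. Over all genes these cluster shares were 29.2%, 48.4% and 11.8%, and 30.3%, 40.8% and 9.27%. As medians over members the shares of reads were 18.0%, 28.6% and 7.05%, and 0.497%, 0% and 0%. The medians over all bound genes were 8.96%, 49.0% and 0%, and 0%, 8.33% and 0%. Without FBL the factors' FH-DHX36-E335A shares of summed reads were 31.6%, 31.5% and 27.0%. Without POLR1C their FH-DHX36 shares were 37.6%, 15.3% and 36.8%. Without FBL and POLR1C, added after seeing the data, they were 33.5%, 33.7% and 22.0%, and 51.9%, 22.5% and 10.5%. With at least 2 clusters, 17 factors were bound by FH-DHX36. The median 3′ UTR NXPM for FH-DHX36 was 9.70, over the 13 factors with 3′ UTR reads. Since it is scaled to the 3′ UTR reads alone, it cannot be compared with the NXPM of whole genes. Factors higher for FH-DHX36-E335A numbered 5 at 4-fold, 21 with 1 read added and genes of either PAR-CLIP, and 4 with at least 50 reads in both. Without PPAN and POLR1C, 1 was higher for FH-DHX36. No share over all genes was computed for these counts or for the 17 factors, so they show nothing particular to the factors. The 21 include factors with no FH-DHX36 cluster. With exonic reads the log2 ratios of POLR1C, RRP1 and NOP16 reversed to 0.27, -1.60 and -0.19, and 4 others not past 2-fold changed sign, FBL (1.43), WDR43 (2.35), NOP14 (-0.48) and UTP6 (-0.04). Runs of at least 3 G left 3 factors with a 3′ UTR match, or 6.52%, where 14.3% of all 3′ UTRs had one. Depth limits the FH-DHX36 PAR-CLIP, where a factor without a cluster may lie under the level at which clusters are called.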

Other observations

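Outside the symbol rule, the 3 ribosome biogenesis genes with the most FH-DHX36-E335A reads were DDX21, NCL and NOLC1. DDX21, a nucleolar DEAD-box helicase, had 8598 FH-DHX36-E335A reads and 908 FH-DHX36 reads, with 2500 and 752 of them in the CDS and 3747 and 156 in the 3′ UTR. NCL encodes nucleolin, a major nucleolar RNA-binding protein, and had 7722 and 3813 reads. Of these, 2696 and 3653 lay in the CDS, and the scaled reads gave a log2 ratio of -1.0. NOLC1, a nucleolar chaperone of snoRNPs, had 5101 and 490 reads. Without an FH-DHX36-E335A cluster were 10 of these 114 genes, among them DKC1, the pseudouridine synthase of H/ACA snoRNPs, and the processome genes TBL3, EMG1 and WDR46.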
